A study of Mus musculus with 2 samples.

Results

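The genes described here encode the proteins of the cytosolic ribosome, measured in whole liver of a control and a conditional knockout mouse group. They were taken as every array probe whose annotated symbol is that of a large subunit (Rpl) or small subunit (Rps) protein, leaving out the Rps6k kinases. The rule found 70 probes for 68 genes, 41 with a large and 27 with a small subunit symbol, among 20690 probes with a symbol and 19321 genes. One of them, Rps19bp1, encodes a binding protein of Rps19 that is not itself part of the ribosome, and 8 are paralogs of a core gene (Rpl3l, Rpl7l1, Rpl10l, Rpl22l1, Rpl36al, Rpl39l, Rps4l and Rps27l). The proteins of the large subunit stalk (Rplp0, Rplp1 and Rplp2) and several core proteins were not analysed here.

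Both liver samples, called livers here, came from mice aged 24 weeks. Both genotypes carried Twist2-Cre, a Cre recombinase driven from a gene of mesenchymal lineages. The control genotype was Twist2-Cre alone, and in the other genotype, Twist2-Cre/A20fl/fl (called CKO here), both copies of A20 were floxed. A20 (gene symbol Tnfaip3) edits ubiquitin chains on signalling proteins and so limits NF-kB activity. Hepatocytes, the main cell of the liver, lie outside the mesenchymal lineages. There was 1 single-colour array per genotype, and how many mice contributed to each RNA was not stated in the labels. No test was therefore possible, and genotype, animal, RNA preparation and array cannot be told apart.

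A ribosome is built from a small subunit, which reads the mRNA, and a large subunit, which joins amino acids and releases the chain through an exit tunnel. Each core protein is present in about the same copy number per ribosome, and most of their mRNAs start with a run of pyrimidines, the 5′ terminal oligopyrimidine (TOP) motif, through which mTOR and LARP1 set their translation. Liver makes large amounts of secreted protein and its ribosomal protein mRNAs are abundant. Because the TOP motif acts mainly on translation, an mRNA level does not show how much ribosomal protein was made.

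The starts of 9 genes are shown to let the TOP feature be seen in members at both ends of the ratios given further on, in 2 core genes with their paralogs, and in Rpl15 for its run of 17 bases. Each line runs 5′ to 3′ on the gene's strand and holds 40 bases before the annotated start and 20 bases from it, from RefSeq on GRCm38.p6. Capitals mark the longest run of C and T that begins with C within 5 bases of the start and is at least 5 bases long. Lines without capitals hold no such run. Members at both ends that have no run are not shown. These are Rps13, Rps15, Rpl7l1 and Rpl24 among the lowest ratios and Rps7, Rpl11 and Rpl39l among the highest.
Rpl28, chr7:4792925-4792984, plus strand: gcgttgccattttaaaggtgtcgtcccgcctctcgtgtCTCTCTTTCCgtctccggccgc
Rpl7a, chr2:26910767-26910826, plus strand: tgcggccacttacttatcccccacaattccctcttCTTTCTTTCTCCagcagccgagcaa
Rpl15, chr14:18270967-18271026, minus strand: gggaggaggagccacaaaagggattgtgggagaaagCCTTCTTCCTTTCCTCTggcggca
Rps10, chr17:27635225-27635284, minus strand: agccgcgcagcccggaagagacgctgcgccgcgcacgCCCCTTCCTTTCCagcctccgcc
Rps15a, chr7:118116128-118116187, minus strand: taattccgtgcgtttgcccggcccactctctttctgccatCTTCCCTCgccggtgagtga
Rps27, chr3:90213629-90213688, minus strand: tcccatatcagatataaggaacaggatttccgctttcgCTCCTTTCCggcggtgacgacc
Rps27l, first of 2 starts, chr9:66946046-66946105, plus strand: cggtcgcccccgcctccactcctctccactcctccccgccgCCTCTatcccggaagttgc
Rps27l, second start, chr9:66946373-66946432, plus strand: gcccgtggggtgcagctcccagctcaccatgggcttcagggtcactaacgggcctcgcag
Rpl22, first of 2 starts, chr4:152325686-152325745, plus strand: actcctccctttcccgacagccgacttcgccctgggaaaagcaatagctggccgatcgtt
Rpl22, second start, chr4:152324396-152324455, plus strand: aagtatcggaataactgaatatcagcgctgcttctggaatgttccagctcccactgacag
Rpl22l1, chr3:28805468-28805527, plus strand: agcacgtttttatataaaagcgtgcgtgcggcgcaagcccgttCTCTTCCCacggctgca

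Of the 68 genes, 54 had a promoter in the RefSeq table (64 annotated starts), each spanning 250 bases before to 50 bases after the start. A pyrimidine run as defined above was found in 25 of the 54 (46.3%), with lengths of 5 to 20 bases and a median of 8. The same rule held for 3341 of 15107 array genes in the table (22.1%), for 5 of 11 genes of a list of elongation factors and other TOP mRNAs (45.5%), and for 17 of 68 genes of mitochondrial ribosomal proteins. Annotated starts can lie a few bases from the true one, so the share of TOP genes read this way is not a count of TOP mRNAs. The motif CCGGAAG, the core that ETS factors such as GABP bind, was in the windows of 23 of the 54 genes (42.6%) on either strand, against 13.8% of the array genes and 38.2% of the mitochondrial ribosomal protein genes. The GC box GGGCGG was found in 63.0% against 53.4% of the array genes and the TATA box TATAAA in 11.1% against 13.8%, again on either strand. AAGATGGC, the core bound by YY1, was on either strand in 5 of the 54 genes (9.26%), against 3.85% of the array genes. Its share was higher among the mitochondrial ribosomal protein genes, at 12 of 68 (17.6%), so the excess was not particular to the cytosolic family. Matches of these 4 motifs may overlap one another and were counted separately. Among the members above background, the 25 with a pyrimidine run had a median log2 ratio (CKO over control) of 0.01 and the 27 without one a median of 0.00. The 22 with CCGGAAG had a median of -0.01 and the 30 without it 0.03, so neither feature went with a shift of more than a few hundredths.

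**Figure D1:**
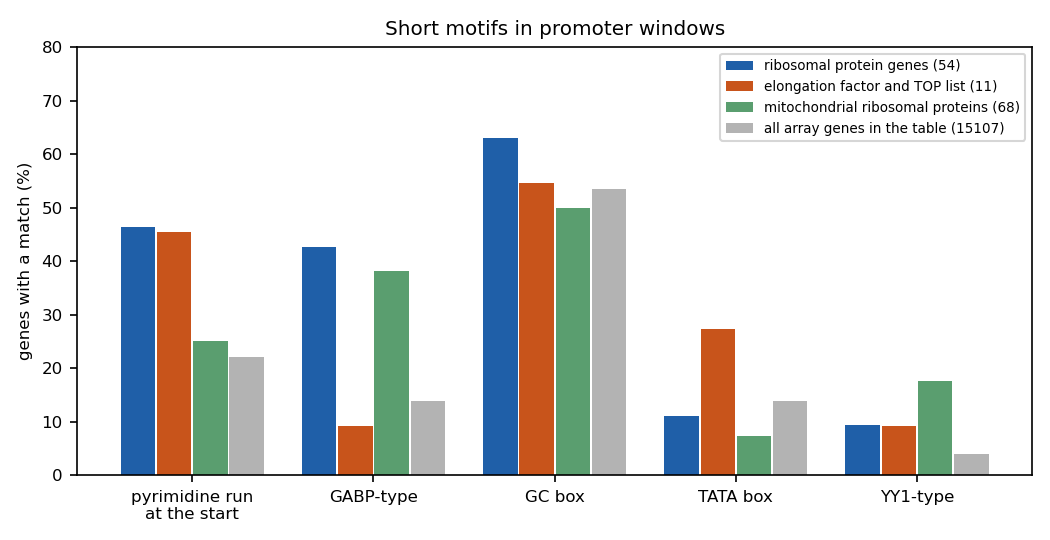
Share of genes (%) with a match to each of 5 promoter features, for ribosomal protein genes, a list of elongation factor and other TOP mRNAs, mitochondrial ribosomal protein genes and all array genes in the RefSeq promoter table, with the number of genes in brackets. The pyrimidine run at the start was in 46.3% of ribosomal protein genes against 22.1% of array genes, and the GABP-type motif in 42.6% against 13.8%.

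The ribosomal protein probes ran from dim to bright. In the authors' deposited intensities, a linear scale on which the median of all listed probes was 25 in both livers, 68 of the 70 probes were listed. Their values ran from 3 to 10153 in the control liver, with a median of 2400, and from 2 to 9457 in the CKO liver, with a median of 2246. On each array 42 of these probes were at 1000 or more and 16 under 100. Their sum, as a share of that of all probes, was 3.76% (control) and 3.62% (CKO). A probe's brightness also reflects how well its sequence binds, so levels of different genes are not compared. Core genes such as Rps20 (deposited intensity 5 and 6), Rps21 (15 and 17), Rpl21 (15 and 17) and Rpl14 (24 and 23), listed in the order control and CKO as everywhere here, had dim probes. Those probes carry little information on a difference.

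Sequences shared between copies limit how far a probe names 1 gene. The RefSeq table holds 318 pseudogenes named after ribosomal proteins, and 48 of the 68 genes have at least 1, up to 23 for Rpl31. How much of a probe's signal comes from such copies was not tested. As a guide to size, the SD of the log2 ratio between probes of 1 gene was 0.13 over 716 genes and 0.15 over 47 genes with bright probes. Replicate positive control spots varied by 0.14 to 0.19 (SD of log2 intensity, 24 spots of each of 2 kinds per array). The control spots measure error within an array. The spread between probes is one of ratios across both arrays and includes differences between the probes themselves. Neither covers differences between mice.

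The hepatocyte markers bore out the tissue label. All 12 markers listed were above background, with summed deposited intensities of 267362 (control) and 249968 (CKO) and none unlisted. Markers of other cell types differed between the livers. Of 12 Kupffer cell and macrophage markers, 11 were above background on both arrays and all 11 were higher in the CKO liver, 7 of them by at least 2-fold, and the list summed to 2735 and 9144 (Adgre1 was not listed in the control). T and B lymphocyte markers summed to 137 and 285, with Cd3e not listed on either array, Cd3g not listed in the control and Il7r not listed in the CKO liver. Of 8 above background 7 were higher, 4 of them past 1.2-fold. The largest rises were those of Ptprc (31 and 88) and Cd8a (9 and 56). Ptprc is also expressed by other leukocytes, so the sum of this list is not one of lymphocytes alone. Cd4 (6 and 8) and the B cell markers Ms4a1 (10 and 9) and Cd79a (8 and 8) were nearly level, and all these intensities were low. Endothelial markers summed to 1227 and 818, with 2 of 7 above background higher, and bile duct markers to 134 and 95, with 0 of 5 higher. Stellate cell and fibroblast markers summed to 1645 and 1384, a fall carried by Dcn (1387 and 918), while 6 of the 8 were higher. Among these were the collagens Col1a2 (59 and 114, log2 ratio 0.62) and Col3a1 (91.5 and 212.5, 0.57) and the smooth muscle actin Acta2 (33 and 59, 0.41). No marker of these 3 lists was unlisted. In whole tissue, fewer cells of a type and less RNA per cell cannot be told apart, and the part of these shifts in the ribosomal protein values was not tested. The targeted gene Tnfaip3 had a deposited intensity of 41 and 38 (log2 ratio -0.07), and since the labels and annotation do not place its probe relative to the floxed part, this checks nothing.

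The ribosomal protein genes as a group were at nearly the same level in both livers. Each ratio is CKO over control in log2 units, from spots corrected for background with an offset of 50 and then quantile-normalized (the normalized scale). On it, 66 of the 68 genes were above background on both arrays. Their median was 0.01, quartiles of -0.08 and 0.07, and 34 genes above 0, 31 below and 1 equal. Over all 14143 genes above background the median was -0.02, and over the 3185 genes at or above the members' lower quartile of level it was -0.03. The SD of the ratios was 0.14 among the members and 0.22 over all genes above background, whose quartiles were -0.09 and 0.05. Among the 3185 genes it was 0.33, with quartiles of -0.16 and 0.09, and among the 49 members at or above that level 0.15. The 2 genes not above background were the muscle paralog Rpl3l and the core gene Rpl37, whose spots (67.1 and 70.7) lay below the thresholds of 69.5 and 72.2.

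On the normalized scale no member reached 2-fold or 1.5-fold in either direction. In the deposited values Rpl28 (-0.61) and the dim Rpl39l (0.91) passed 1.5-fold and the dim Rpl10l (3 and 2) was at it, and Rpl39l also passed it with plain subtraction of the background (0.84). At 1.2-fold on the normalized scale, Rpl22l1 was the only member higher, 1 of 66. The background was 5.56% over all genes and 10.3% over the 3185 genes at or above the members' lower quartile of level. Rpl28 and Rpl23a were lower, 2 of 66 against 4.26% and 11.4%. Of the 49 members at or above that quartile, 1 (2.04%) was higher and 2 (4.08%) lower. Of the 17 members below it, 0 passed 1.2-fold, and no share is given for all genes below that level. Rpl22l1 fell short of 1.2-fold under median scaling (0.26), where Rps4l (0.27) was the 1 member past it, and in the deposited values (0.21), and it was at -0.34 with the local background column. At 2-fold the background was 0.636% higher and 0.0778% lower over all genes and 1.6% and 0.283% over those 3185 genes. At 1.5-fold it was 1.72% and 0.417%, and 3.17% and 1.41%. The offset shrinks the ratios of dim members on this scale.

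**Figure D2:**
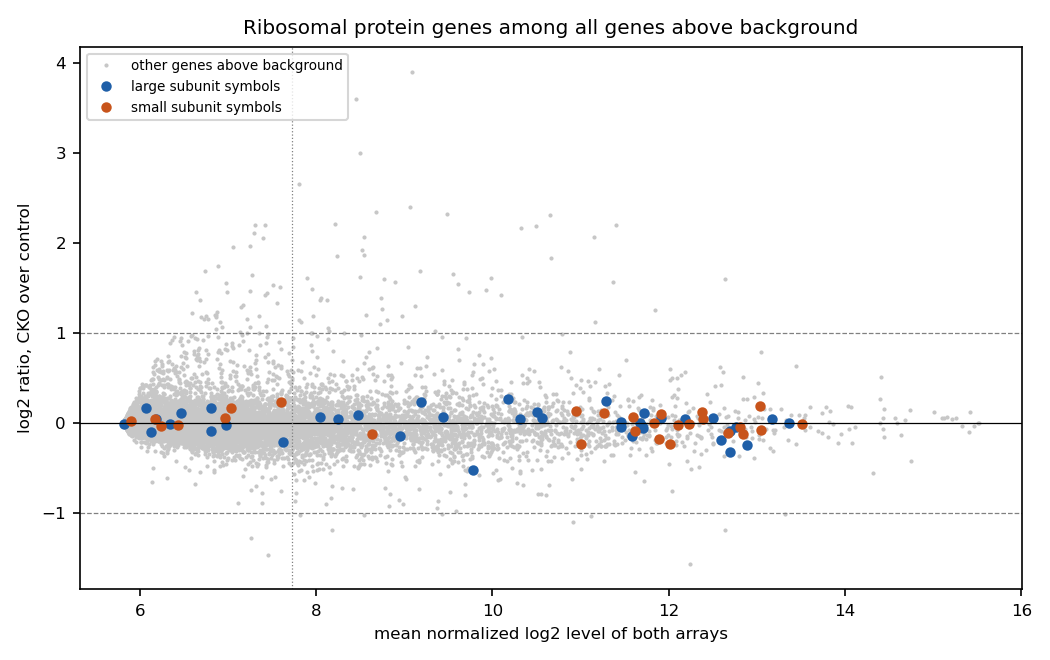
Log2 ratio (CKO over control) against the mean normalized log2 level of both arrays, 1 point per gene above background, with large and small subunit symbols coloured; dashed lines mark 2-fold and the dotted line the members' lower quartile of level. The 66 ribosomal protein genes lie between -0.52 and 0.27 at low and high levels, while other genes reach 3.91.

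The small shift of the group depended on how the arrays were scaled. In the deposited values the members' median was -0.09, with 20 genes above 0, 45 below and 1 equal, and it was -0.03 under median scaling and 0.02 under cyclic loess. The median of the 3185 bright genes was -0.09 in the deposited values, -0.03 on the reported scale and under median scaling, and 0.00 under cyclic loess. The 49 members at or above the same level had a median that was higher than that of the bright genes by 0.04 on the reported scale and 0.02 under cyclic loess. It was lower under median scaling and in the deposited values, with a difference of -0.03 in both. The sign of the group's median, and that of its difference from bright genes, therefore depended on the scaling. Over the reported processing and 9 alternatives other than the local background column, 19 members (11 large, 8 small) were higher wherever measured, 24 (14 large, 10 small) were lower wherever measured and 23 changed sign or were equal to 0 in at least 1. Rps20 and Rpl10l had values in 9 of these 10, since the stricter filter on dim probes removed them. No member changed sign with plain subtraction, an offset of 16 or a changed filter on dim probes, and 1 did with the brightest probe. The other scalings and the deposited values changed the sign of 8 to 14 members each. All of these are processings of the same 2 arrays, and the share of all genes that kept their sign is not given.

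**Figure D3:**
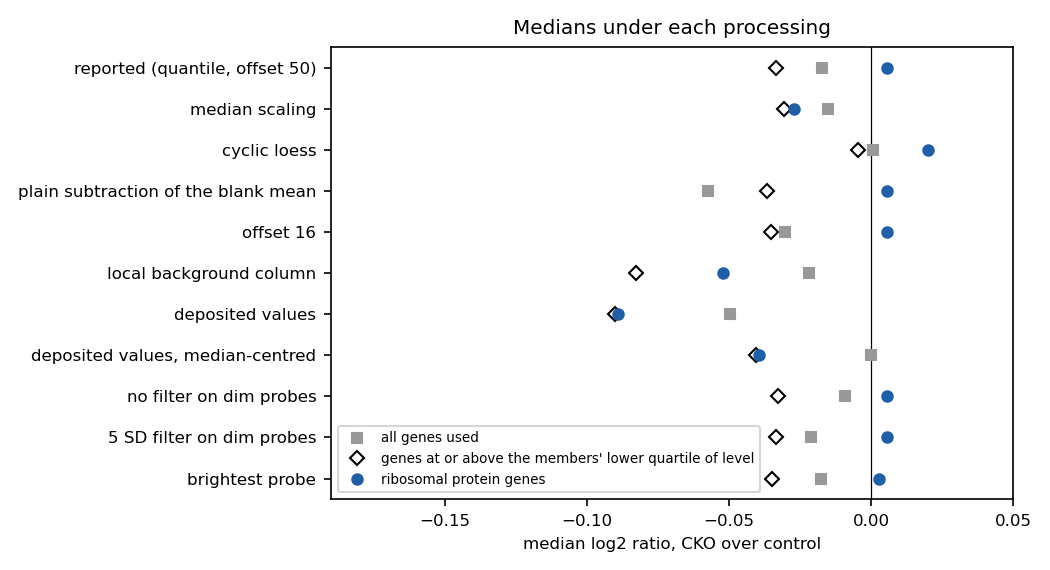
Median log2 ratio (CKO over control) of all genes used, of genes at or above the members' lower quartile of level and of the ribosomal protein genes under the reported processing and 10 alternatives. The ribosomal protein median runs from -0.09 in the deposited values to 0.02 under cyclic loess, and that of the bright genes from -0.09 to 0.00.

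The 2 subunits had nearly the same median. The 39 large subunit genes above background had a median of 0.01 (range -0.52 to 0.27) and the 27 small subunit genes one of -0.01 (range -0.24 to 0.23). In the deposited values the 10 genes past 1.2-fold on the lower side and the 6 on the higher side came from both subunits. The background there was 24.3% lower and 18.4% higher over all genes, and 21.5% and 10.1% over the 3185 bright genes. The 6 higher ones, Rpl39l, Rpl31, Rps4l, Rpl17, Rps15a and Rps20, all had deposited intensities of 132 or less.

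**Figure D4:**
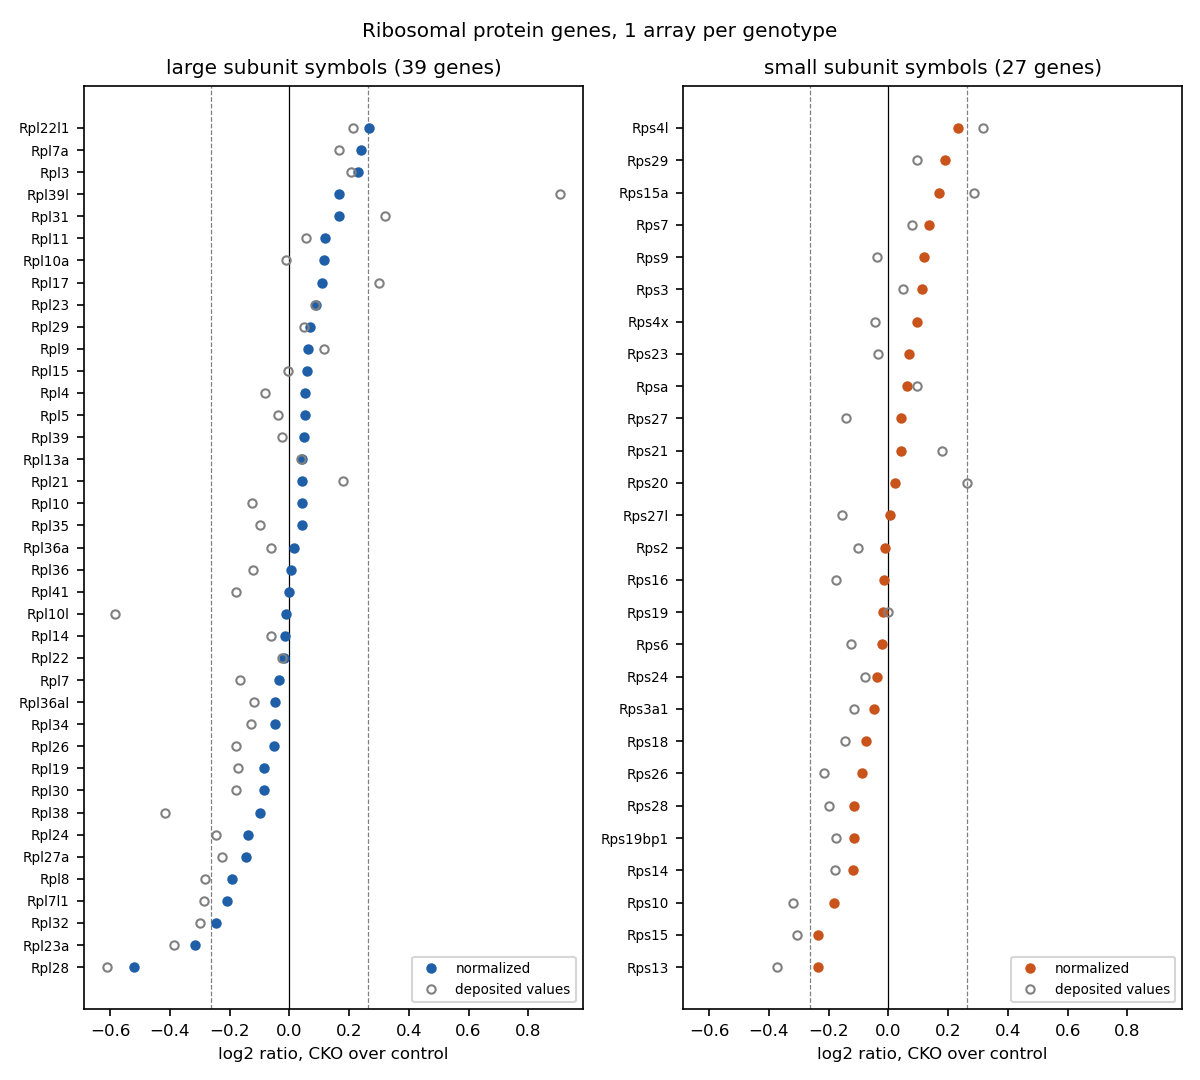
Log2 ratio (CKO over control) of each of the 66 ribosomal protein genes above background, large subunit symbols left and small subunit symbols right, on the normalized scale (filled) and in the deposited values (open); dashed lines mark 1.2-fold. Most bright genes lie further left in the deposited values, Rpl28 is the lowest on both scales, and the open points far from their filled partners are dim genes such as Rpl39l and Rpl10l.

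On the lower side Rpl28, a large subunit protein found in animals and not in yeast, had the lowest ratio of all members. Its probe read 858 in the control and 562 in the CKO tissue (deposited intensity), a log2 ratio of -0.52 on the normalized scale (1.43-fold lower) and of -0.61 in the deposited values. Across all alternatives, the local background column included (-0.59), it stayed between -0.61 and -0.49. Among members it stood alone, the next ratio being -0.32. Its start carries a TOP run of 10 bases, shown above, as did those of members with ratios near 0 such as Rps6.

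Rpl23a, which sits at the rim of the exit tunnel where the signal recognition particle docks, had deposited intensities of 6311 and 4832. Its log2 ratio was -0.32 on the normalized and -0.39 on the deposited scale, and 0.21 against the local background column. Rpl32, also of the large subunit, followed with 7007 and 5693 (log2 ratio -0.25). Of the small subunit, Rps13 (3891 and 3005, -0.24) and Rps15, which reaches towards the decoding site (1873 and 1513, -0.24), were alike in ratio.

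The other low members were a mix of core genes and 1 paralog. Rpl7l1, a nucleolar paralog of Rpl7, had 134 and 110 (log2 ratio -0.21), while Rpl7 itself was at 2914 and 2599 (-0.04). Rpl8, which lies by the peptidyl transferase centre, had 5678 and 4674 (-0.19). Rps10, a target of ubiquitination when ribosomes collide, had 3511 and 2814 (-0.18). Rpl27a (402 and 344, -0.15) and Rpl24 (2803 and 2367, -0.14) completed the 10 lowest. All 10 were lower on every scale tried apart from the local background column, where Rpl23a, Rpl8 (2.83) and Rpl24 (2.77) were above 0.

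The highest ratio belonged to Rpl22l1, the paralog of Rpl22 that is known to rise when Rpl22 is lost. Its deposited intensity was 861 and 999, a log2 ratio of 0.27 on the normalized scale and 0.21 in the deposited values. Rpl22 was level at 62 and 61 (-0.02), with a sign that differed between scales. In the sequences shown above the start of Rpl22l1 carries a run of 8 pyrimidines and neither start of Rpl22 carries one.

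Among core genes Rpl7a, a large subunit protein, was the highest with 1959 and 2199 (log2 ratio 0.24). Rpl3, a protein of the peptidyl transferase centre, had 418 and 482 (0.23). Rps29, a small zinc-binding protein of the small subunit, had 6679 and 7144 (0.19). These 3 were higher in both the normalized and the deposited values, although against the local background column Rpl3 was at -0.42.

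The remaining genes among the 10 highest were dim or of middling brightness. Rps4l, an autosomal paralog of the X-linked Rps4x, had 106 and 132 (log2 ratio 0.23), while Rps4x had 3263 and 3159 (0.10 normalized and -0.05 deposited). Rps15a had 59 and 72 (0.17), Rpl31, at the rim of the exit tunnel, 44 and 55 (0.16), and Rps7 1578 and 1668 (0.14). Rpl11, which with Rpl5 forms the 5S particle that can bind and inhibit MDM2, had 1148 and 1192 (0.12). Rpl39l, a paralog known mainly from testis, had only 8 and 15, which is a log2 ratio of 0.91 in the deposited values and 0.17 after the offset. Both values lie close to background, and the ratio depends on the offset.

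The paralogs as a set had the same median ratio as the core genes. Of the 8, 7 were above background, with a median of 0.01 and 1 (Rpl22l1) past 1.2-fold, against a median of 0.01 for the 58 core genes above background. Rps27l, a p53-induced paralog of Rps27, had 3203 and 2874, and Rps27 had 4714 and 4267. Both had log2 ratios near 0 on the normalized scale (0.01 and 0.04) and below 0 in the deposited values (-0.16 and -0.14), a shift shared by most bright members. Against the local background column Rps27l was at -0.89 and Rps27 at 4.26. Rpl36al (6009 and 5534, -0.05) and Rpl36a (2364 and 2264, 0.01) differed by 0.06. Rpl10l, a testis paralog of the X-linked Rpl10, was at 3 and 2 near background and its ratio carries no weight, whereas Rpl10 had 7996 and 7340 (0.04 normalized, -0.12 deposited). Rps19bp1, the binding protein, had 307 and 272 (-0.12).

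Arranged by place in the ribosome, most sites held ratios on both sides of 0. The 9 proteins of the exit tunnel and its rim had a median log2 ratio of 0.04, from -0.32 for Rpl23a to 0.16 for Rpl31, with the tunnel proteins Rpl4 (3306 and 3125, 0.05) and Rpl39 (1037 and 1019, 0.05) in between. The 3 proteins of the peptidyl transferase centre pointed both ways, Rpl8 at -0.19, Rpl10 at 0.04 and Rpl3 at 0.23. Both proteins of the 5S particle were slightly above 0 on the normalized scale, Rpl5 (4939 and 4807) at 0.05 and Rpl11 at 0.12, although Rpl5 was at -0.04 in the deposited values.

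On the small subunit the 6 proteins of the mRNA entry side and decoding centre had a median of 0.04. They ranged from -0.18 for Rps10 to 0.12 for Rps9 (4505 and 4382), and included the dim Rps20 (5 and 6, 0.02) and Rps3 (2004 and 2073, 0.11). Rps3 is also known to bind the NF-kB subunit p65. Rps15 (-0.24), which reaches towards the decoding site, was not counted in this group. The 4 proteins of the mRNA exit side had a median of -0.10, with Rps14 at -0.12, Rps28 at -0.11, Rps26 (2804 and 2416) at -0.09 and Rpsa, also known as the laminin receptor (58 and 62), at 0.06. Rps6, the substrate of the S6 kinases downstream of mTOR, had 3838 and 3522 (-0.02). Rpl13a, which is known to leave the ribosome and silence selected mRNAs after interferon-gamma, had 209 and 215 (0.04 on both scales).

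Genes read by more than 1 probe showed how far probes of 1 gene can part. The brighter probe for Rpl9 read 4596 and 3918 (log2 ratio -0.06) and the dimmer one 29 and 40 (0.19), so the gene's mean of 0.06 joins opposite signs. For Rps28, 1 probe read 5532 and 5214 (0.01) and the other 6174 and 4974 (-0.24), a gap as wide as the distance from Rps13 to 0. Apart from Rpl28, Rpl23a and Rpl22l1, no member had a ratio further from 0 than these probes were from each other.

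The other genes of the translation pathway, from 6 lists, had list medians between -0.14 and 0.03. Their counts past 1.2-fold stand against the 5.56% higher and 4.26% lower of all genes, and the 10.3% and 11.4% of the 3185 bright genes. Each list is small and holds both bright and dim genes. Of the 5 measured proteins that are fused or bound to ribosomes none passed 1.2-fold, with a median of -0.14. The largest differences there were those of Larp1, the TOP mRNA repressor (205 and 163, log2 ratio -0.22), and Btf3 (1056 and 884, -0.18), followed by Fau, which encodes the small subunit protein eS30 (4818 and 3894, -0.14), and Naca (1604 and 1417, -0.12). Of 18 elongation factors and other TOP mRNAs, 2 (11.1%) passed 1.2-fold higher and 0 lower, with a median of 0.03. The elongation factor Eef1b2 was at 1170 and 1759 (0.62). Vim, the other one past 1.2-fold, encodes an intermediate filament of mesenchymal cells and macrophages (204 and 377, 0.79). Pabpc1 (1093 and 1214, 0.21) and Eif3h (1322 and 1081, -0.22) came next.

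Initiation factors had members on both sides. Of 21 measured, 3 (14.3%) were past 1.2-fold higher and 1 (4.76%) lower, with a median of -0.02. They were Eif3c (957 and 1278, log2 ratio 0.47), the subunit-joining factor Eif5b (47 and 78, 0.41), Eif4h (27 and 44, 0.30) and, lower, Eif1b (340 and 262, -0.29). Of 29 ribosome assembly factors 24 were below 0, with a median of -0.07 and none past 1.2-fold, against 8174 of all 14143 genes below 0 and a median of -0.02. Their largest ratios were Nob1, which cuts the small subunit rRNA precursor (45 and 33, -0.22), Sbds, which helps release a factor from new large subunits (321 and 370, 0.22), Nop58 (121 and 99, -0.20) and Mrto4 (131 and 113, -0.16).

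Genes of RNA polymerase I and the nucleolus had a median of -0.02, with 1 of 15 (6.67%) past 1.2-fold higher and 0 lower. That gene was Myc (10 and 23, log2 ratio 0.30), a driver of ribosome synthesis whose probe was dim, and the next were Taf1b (16.5 and 29, 0.25), Nolc1 (69 and 52, -0.24) and Ubtf (241 and 206, -0.17). In the mTOR and S6 kinase pathway 1 of 18 genes (5.56%) was past 1.2-fold higher and 2 (11.1%) lower, with a median of -0.04. They were the kinase Mtor (168 and 230, 0.39) and the translation repressors Eif4ebp2 (165 and 105, -0.47) and Eif4ebp3 (294 and 213, -0.37). For comparison, 77 mitochondrial ribosomal protein genes, a separate family, had a median of -0.06, with 1 past 1.2-fold higher and 5 lower, and the difference between the families was not tested.

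**Figure D5:**
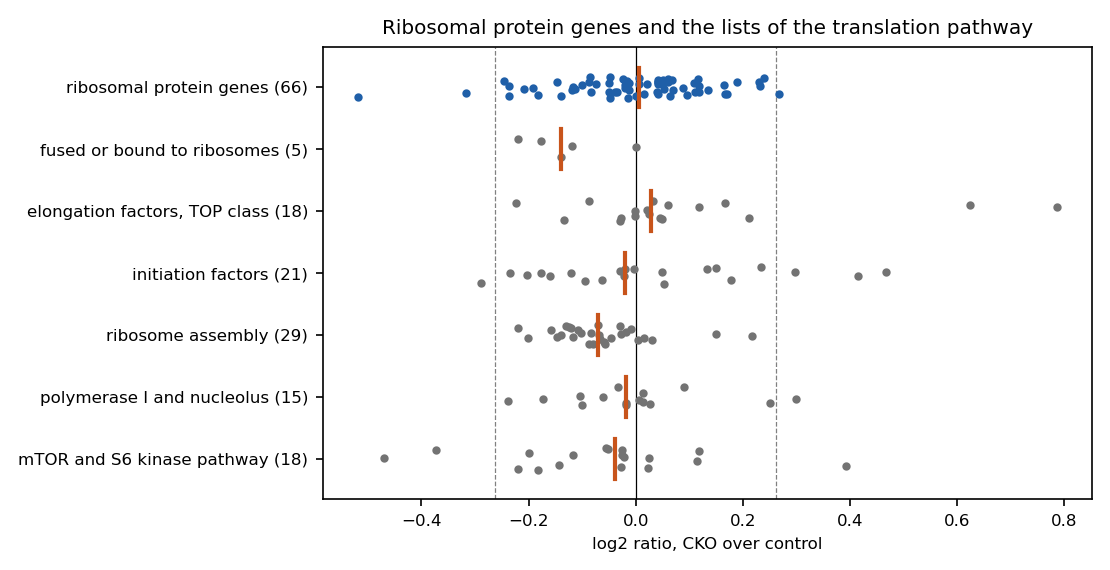
Log2 ratio (CKO over control) of the ribosomal protein genes and of the genes of 6 translation lists, 1 point per gene above background (number in brackets, vertical jitter only), with the list median as a bar and dashed lines at 1.2-fold. The medians lie between -0.14 and 0.03, and the points furthest to the right are Vim (0.79) and Eef1b2 (0.62).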

How the data were processed

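Total RNA of liver, 1 sample per genotype, was amplified with an amino allyl kit and labelled with Cy5, per the labels' protocols. Per the file headers, the scanner files give a median intensity per spot, plus one for the local background, scanned at 3 gains. The deposited value table holds background-subtracted, scaled intensity in whole numbers; the authors' steps for it are not described in the labels.

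Spots were corrected with normexp (limma 3.58.1, R 4.3.3) with the mean of 384 blank spots as background and an offset of 50, control and flagged spots were left out, and arrays were quantile-normalized on the log2 scale. The local background column was not used as the main setting because it tracked the spot's own signal (median share of the spot over member probes 0.843 control, 0.758 CKO, up to 1.23). A gene was above background when a probe exceeded the blank mean plus 2 SD on both arrays, and its value was the mean log2 of such probes. This held for 73.8% of gene probes on the control and 73.6% on the CKO array taken singly, and 0 spots were at the scanner's limit. The number of arrays limits the precision.

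Probes were named from the platform annotation, and all 68 members matched RefSeq (GRCm38.p6). With 1 array per genotype, counts past 1.2, 1.5 and 2-fold describe these arrays and are not tests. Genes named are the 10 highest and 10 lowest ratios, paralogs, genes with several probes, Rpsa, the stalk proteins (not measured here), up to 4 genes per list and Tnfaip3; others named (core partners of paralogs, genes placed by role, Rpl13a, Rps6, Rpl15 and dim examples) were picked with their values in view, as were the role groups. Members and lists were chosen with earlier results of these data known. The scripts were tested on simulated data. Alternatives were other scalings, background corrections, offsets, filters, probe rules and member sets, and the deposited values.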

Additional observations from a re-analysis of the deposited data

How the results depend on the processing

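No paired analysis was possible because each genotype had 1 sample. All 13 alternatives were planned. The medians of the members, of each subunit and of the 6 lists each moved from the reported value by less than the spread between probes of 1 gene (0.13) under every alternative run for them except the local background column. That spread is one of single genes, so it is a wide measure for a median and does not show that these were stable. In the deposited values the members' median went from 0.01 to -0.09 and that of the large subunit from 0.01 to -0.08. The 3 alternatives on member sets were not run for the lists. With the local background column the small subunit median was 0.19, large minus small was -0.30 and the list of proteins fused or bound to ribosomes was at 0.20. Under that setting Rpl23a (0.21) and Rpl22l1 (-0.34) turned sign. Members were then past 1.2-fold higher in 22 and lower in 22 cases, and 33 of 66 members had the other sign. Member counts past 1.2-fold, 1 higher and 2 lower as reported, were otherwise 1 and 3 under median scaling (with Rps13 at -0.31 added), 3 and 1 under cyclic loess, 6 and 4 with plain subtraction, 3 higher with an offset of 16, 6 and 10 in the deposited values, 7 and 6 in those after median-centring, and 0 higher without paralogs. Over all genes, counts at 2-fold higher and lower were 431 and 81 with plain subtraction, 183 and 19 with an offset of 16, 437 and 198 with the local background column, 497 and 104 in the deposited values and 512 and 52 after centring them, against 90 and 11. At 1.2-fold they were 2427 and 3298, 1248 and 1185, 1559 and 1864, 2602 and 3439, and 3001 and 2714 in the same order, against 786 and 602. Fewer units of offset leave the ratios of dim genes larger, by construction. The other causes were not tested. Signal over background limits the 16 member probes under 100.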
